A study of Mus musculus and Mus musculus
Rattus norvegicus with 30 samples.

Results

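The genes described here are 10 genes that take up, bind, make, break down or sense retinoic acid: Stra6, Crabp1, Crabp2, Aldh1a2, Dhrs3, Cyp26a1, Cyp26b1, Rara, Rarb and Rarg. They were chosen by gene name with earlier results of these data known, so their counts set against all genes are descriptions. They are 10 of the 19919 genes counted in both tables of mouse embryonic stem cells (mESC). All 10 also had counts on the mouse allele and on the rat allele of RMES cells, and all 10 passed the filter on low counts in every main comparison.

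Retinol can enter a cell through the membrane receptor Stra6 and is oxidised to retinal and then, by retinaldehyde dehydrogenases such as Aldh1a2, to retinoic acid. Dhrs3 reduces retinal back to retinol, and Cyp26a1 and Cyp26b1 hydroxylate and so inactivate retinoic acid, which Crabp1 and Crabp2 bind in the cytoplasm. Rara, Rarb and Rarg are the nuclear receptors that sense it as partners of retinoid X receptors, and Rarb, Cyp26a1, Dhrs3 and Stra6 are known as genes that retinoic acid itself induces. In embryonic stem cells retinoic acid is a classical signal for differentiation, and Cdx2, the factor induced in these cells, is a homeobox factor of the trophoblast lineage and of the posterior embryo.

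The mESC libraries fell into 10 conditions with 2 libraries each. WT cells were compared with cells overexpressing (OE) Flag-tagged mouse Cdx2 (mCdx2-OE), rat Cdx2 (rCdx2-OE) or 1 of 7 mutants of rat Cdx2, all carried by lentivirus behind a promoter that responds to doxycycline. The 7 mutants put mouse residues into the rat protein: change 1 turns a tyrosine into phenylalanine, change 2 turns an alanine into serine and change 3 deletes an asparagine, and they are named R1, R2, R3, R12, R13, R23 and R123 after the changes they carry. Doxycycline was given for 48 h to mCdx2-OE and rCdx2-OE cells; the time for the mutants is not given in the sources used here. RMES cells are fused from a mouse haploid and a rat haploid embryonic stem cell, so each of the 4 RNA libraries (WT in 2 libraries, mCdx2-OE and rCdx2-OE in 1 each, also at 48 h) gave a value for the mouse and for the rat allele. All cells were kept in N2/B27 medium with PD0325901, Chir99021 and mLIF, so the controls shared these inhibitors and the cytokine. The labels call the controls WT without saying whether they are the parental line or an uninduced transgenic line, and they name no separate cultures, so p-values measure only the spread between these libraries. How many lines stand behind a construct is not given in the sources used here, so line and construct cannot be told apart.

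Total counts were 74960057 and 94686029 in the mESC WT libraries and 12698443 to 24315929 in the 18 Cdx2 libraries, so low genes were measured more precisely in WT. Cdx2 itself was at 1.36 and 1.21 CPM (counts at a library total of 1000000, scaled by edgeR's TMM method) in WT, 97.9 and 127 CPM in mCdx2-OE, 70.4 and 67.0 CPM in rCdx2-OE and 37.2 to 147 CPM in the 14 mutant libraries. The authors aligned mESC reads to the mouse genome only, whereas rCdx2 and the mutants were built on the rat sequence. How well the rat reads aligned was not tested, so Cdx2 levels of mCdx2-OE and of the rat constructs are not directly comparable. Summed levels of 8 naive pluripotency markers were 3845 to 3863 CPM in WT, 2962 to 3316 CPM with mCdx2 or rCdx2 and 3689 to 4522 CPM with the mutants, and all 8 were detected in each of these groups. They did not move together, since the mean of Pou5f1 went from 1470 CPM in WT to 515 CPM with mCdx2 or rCdx2 and that of Nanog from 540 to 820 CPM. Summed levels of 8 trophoblast markers were 158 to 160, 555 to 755 and 161 to 286 CPM in the same order. From WT to mCdx2 or rCdx2 the keratins Krt8 (14.1 to 210 CPM) and Krt18 (9.41 to 278 CPM) made up most of that sum's difference, whereas Tfap2c went from 122 to 130 CPM and Eomes from 8.19 to 4.23 CPM. In the same order of groups the sums were, for 8 primitive endoderm markers, 6.70 to 7.14, 26.1 to 33.7 and 17.2 to 27.5 CPM, for 7 posterior mesoderm markers, 5.63 to 6.05, 1.84 to 2.92 and 1.79 to 4.59 CPM, and for 8 fibroblast markers, 38.2 to 39.2, 16.1 to 19.9 and 2.81 to 7.83 CPM, with Dcn and Lum at 0 in the mCdx2 and rCdx2 libraries and Lum at 0 in the mutants. The fibroblast markers did not move together either. In the same order of groups the mean of Col1a1 was 15.0, 2.24 and 1.87 CPM, whereas that of Pdgfrb was 4.28, 14.2 and 3.05 CPM. The part of these shifts in the results below was not tested. In bulk libraries fewer cells of a type and less RNA per cell cannot be told apart. Same-numbered libraries deviated together among the 7 mutants (correlation of replicate differences 0.49 to 0.77) and between mCdx2-OE and rCdx2-OE (0.87), but not between these sets (-0.34 to -0.13). Whether the sets were prepared apart is not given in the sources used here, so a difference between the sets and one between the constructs cannot be told apart.

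The promoters of Rarb and Cyp26a1 are shown because only they, among those of the members, held a retinoic acid response element of the DR5 kind. This element is a direct repeat bound by the receptors. Both stretches are of 250 bases from the RefSeq promoter table of GRCm38, 5′ to 3′ along the gene, and capitals mark the paired binding sites, which begin at position -53 from the RefSeq start in Rarb and -32 in Cyp26a1.
Rarb promoter, chr14:16575477-16575726, minus strand: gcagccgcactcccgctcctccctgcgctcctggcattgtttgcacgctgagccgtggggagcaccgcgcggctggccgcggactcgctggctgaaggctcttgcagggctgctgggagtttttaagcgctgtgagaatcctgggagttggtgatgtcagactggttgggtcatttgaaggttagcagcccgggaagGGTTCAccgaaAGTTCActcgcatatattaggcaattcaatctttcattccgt
Cyp26a1 promoter, chr19:37697558-37697807, plus strand: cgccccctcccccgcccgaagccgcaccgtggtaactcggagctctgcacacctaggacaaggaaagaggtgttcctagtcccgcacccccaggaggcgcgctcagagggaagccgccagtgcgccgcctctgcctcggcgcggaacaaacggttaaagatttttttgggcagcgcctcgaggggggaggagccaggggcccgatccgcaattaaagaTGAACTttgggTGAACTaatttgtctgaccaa
On either strand a DR5 element was found in 29 of 32851 promoters of this length (0.0883%) and in 2 of the 18 promoters of the members, and the related DR2 element in 57 of all promoters (0.174%) and in none of the members. The 18 promoters belong to 9 members, with Crabp2 the other gene. A match is a description of the letters, not a bound site. The members include genes known to be induced by retinoic acid, so these shares are not a test.

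The receptors changed in opposite directions when mCdx2 or rCdx2 was induced. Rarb rose, whereas Rara and Rarg, which were the more abundant receptors in WT, fell. Of the 10 genes, 6 passed the test with mCdx2 (4 higher, 2 lower) against 33.4% of all genes tested (18.4% higher and 15% lower), and 7 passed with rCdx2 (5 higher, 2 lower) against 34.5% (19% higher and 15.4% lower). A gene was called at an adjusted p under 0.05 and a change over 2-fold, where p came from the quasi-likelihood test of edgeR and was adjusted by the method of Benjamini and Hochberg. Both comparisons share the WT libraries, so their values stand side by side and are not independent.

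Rarb (chr14:16430839-16819156, minus strand of GRCm38), the receptor that retinoic acid itself induces, was at 1.13 and 1.23 CPM in WT, 7.69 and 9.11 CPM in mCdx2-OE and 9.54 and 11.3 CPM in rCdx2-OE. Every induced library lay above both WT libraries. The log2 fold changes were 2.81 ± 0.23 (SE; adjusted p = 1.97e-08, 7.03-fold) with mCdx2 and 3.12 ± 0.23 (adjusted p = 5.13e-09, 8.70-fold) with rCdx2. Rarb overlaps Top2b on the other strand, and the authors counted by strand, which separates them.

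Rarg (chr15:102234938-102257517, minus strand), the most abundant receptor per length in WT cells, was at 152 and 151 CPM in WT, 40.6 and 33.0 CPM in mCdx2-OE and 34.7 and 35.6 CPM in rCdx2-OE. The induced libraries did not overlap WT, and those of both proteins overlapped each other. The log2 fold changes were -2.03 ± 0.09 (adjusted p = 2.19e-11, 4.10-fold lower) and -2.11 ± 0.09 (adjusted p = 1.37e-11, 4.31-fold lower). Rara (chr11:98927818-98974942, plus strand), the widely expressed receptor, was at 41.5 and 40.7 CPM in WT, 15.0 and 16.9 CPM in mCdx2-OE and 15.3 and 17.9 CPM in rCdx2-OE, with log2 fold changes of -1.37 ± 0.11 (adjusted p = 1.2e-08, 2.58-fold lower) and -1.32 ± 0.11 (adjusted p = 1.77e-08, 2.49-fold lower). Rara holds a small nuclear RNA gene, Gm22061, on its own strand, so reads of that stretch are uncertain. Per kilobase of counted exon the receptors stood at 35.5 (Rarg), 9.42 (Rara) and 0.233 CPM per kb (Rarb) in WT, and at 8.45, 3.73 and 1.85 CPM per kb over the 4 mCdx2 and rCdx2 libraries. The order of the receptors thus stayed the same while the distance between them narrowed.

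Of the enzymes that lower retinal or retinoic acid, Dhrs3 and Cyp26a1 rose with both proteins. Dhrs3 (chr4:144892827-144928209, plus strand) showed the largest fold change of the 10 genes with both proteins. It was at 1.06 and 1.28 CPM in WT, 13.05 and 11.7 CPM in mCdx2-OE and 13.7 and 13.6 CPM in rCdx2-OE, with log2 fold changes of 3.39 ± 0.25 (adjusted p = 4.85e-09, 10.5-fold) and 3.53 ± 0.25 (adjusted p = 2.71e-09, 11.6-fold). Cyp26a1 (chr19:37697798-37701536, plus strand) was low throughout, at 0.227 and 0.308 CPM in WT, 1.46 and 1.37 CPM in mCdx2-OE and 2.42 and 1.61 CPM in rCdx2-OE, which rests on 21 to 63 counts an induced library. Every induced library was still above WT, and the log2 fold changes were 2.37 ± 0.51 (adjusted p = 0.000718) and 2.91 ± 0.49 (adjusted p = 8.08e-05). Cyp26b1 (chr6:84571414-84593908, minus strand), the other cytochrome, was at 0.269 and 0.286 CPM in WT, 0.585 and 0.781 CPM in mCdx2-OE and 0.769 and 1.39 CPM in rCdx2-OE. It rose with rCdx2 (1.87 ± 0.51, adjusted p = 0.00382), but without rCdx2-OE replicate 2 the value was 1.45 with an adjusted p of 0.0594. With mCdx2 its value of 1.25 ± 0.54 did not pass (adjusted p = 0.0503).

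Stra6 (chr9:58063788-58153996, plus strand), the retinol receptor, was at 0.978 and 0.948 CPM in WT, 2.89 and 2.47 CPM in mCdx2-OE and 3.65 and 3.52 CPM in rCdx2-OE. All induced libraries were higher, with log2 fold changes of 1.48 ± 0.29 (adjusted p = 0.000226, 2.79-fold) and 1.89 ± 0.28 (adjusted p = 1.59e-05, 3.72-fold). The gene lies partly over Ccdc33, on the other strand, and over Gm16131 on its own strand, so reads of the latter stretch are uncertain. The binding proteins changed less than 2-fold. Crabp1 (chr9:54764748-54773110, plus strand), which holds retinoic acid in the cytoplasm, was at 6.97 and 6.60 CPM in WT, 5.44 and 4.36 CPM in mCdx2-OE and 5.08 and 4.33 CPM in rCdx2-OE. Crabp2 (chr3:87948666-87953376, plus strand), which carries retinoic acid to the nucleus, was at 4.21 and 4.34 CPM in WT, 7.74 and 5.85 CPM in mCdx2-OE and 9.23 and 4.54 CPM in rCdx2-OE, so the rCdx2 libraries differed from each other by more than the groups did. Its log2 fold changes were 0.68 ± 0.25 and 0.73 ± 0.25 and were not called, whereas without rCdx2-OE replicate 2 the value for rCdx2 was 1.10 with an adjusted p of 0.000537. Aldh1a2 (chr9:71215789-71296243, plus strand), the enzyme that makes retinoic acid, showed no detectable change, at 5.39 and 5.39 CPM in WT, 5.69 and 6.18 CPM in mCdx2-OE and 5.46 and 5.64 CPM in rCdx2-OE, with log2 fold changes of 0.13 ± 0.15 and 0.04 ± 0.15 (adjusted p = 0.445 and 0.827).

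**Figure D1:**
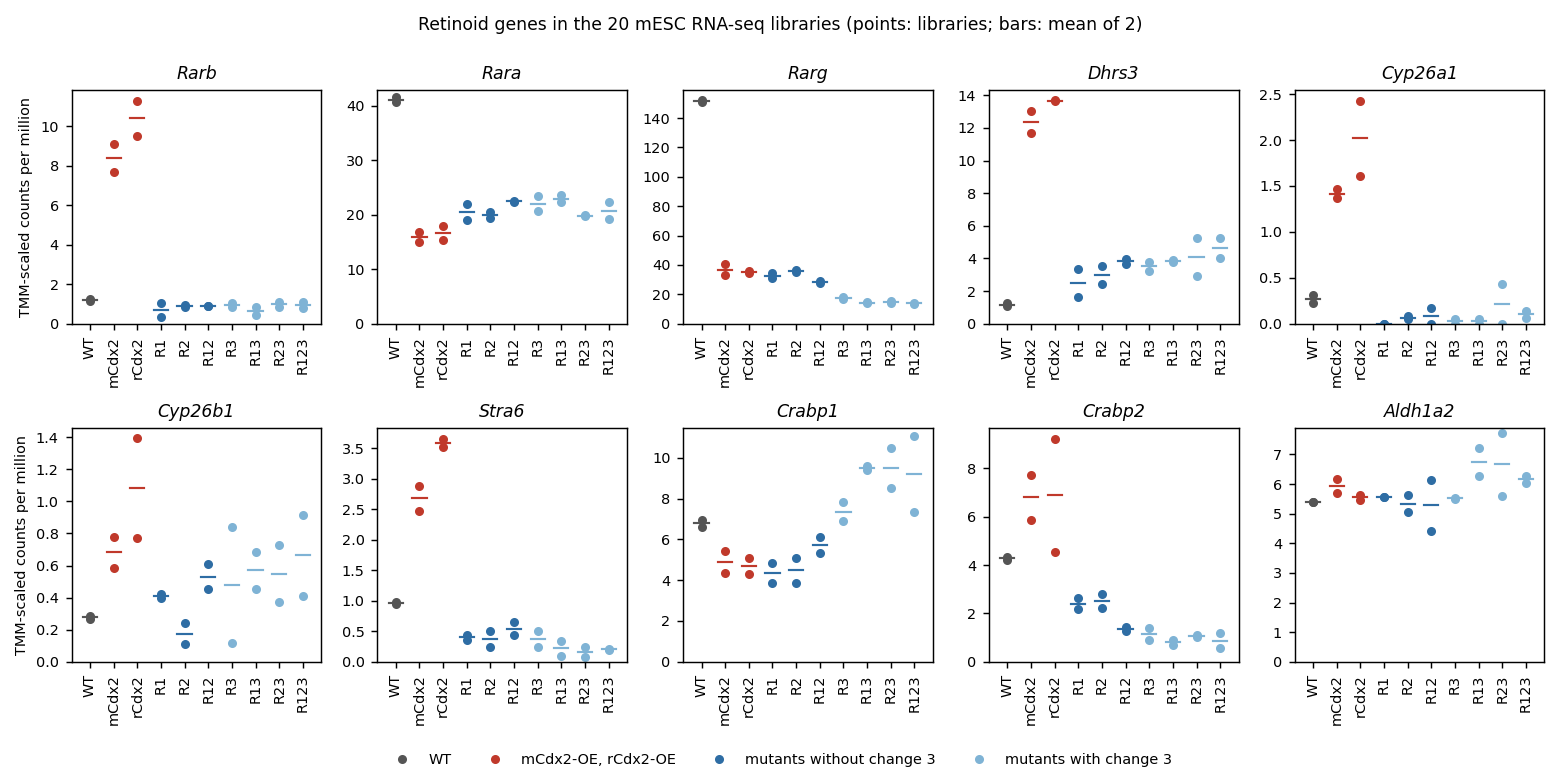
CPM of each of the 10 genes in the 20 mESC libraries, 1 panel a gene, with 2 points and a bar at their mean for each of WT, mCdx2-OE, rCdx2-OE and the 7 mutants (dark blue without and light blue with change 3). Rarb, Stra6, Crabp2, Dhrs3 and Cyp26a1 are higher in all 4 libraries with mCdx2 or rCdx2 than in all 14 mutant libraries.

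The order of the 10 genes per length shifted with induction. In WT it ran from Rarg through Rara, Crabp1 (8.46 CPM per kb), Crabp2 (3.23), Aldh1a2 (2.38), Dhrs3 (0.400), Rarb, Stra6 (0.165) and Cyp26a1 (0.151) to Cyp26b1 (0.052), and only Stra6 and Cyp26a1 overlapped between neighbours. With mCdx2 or rCdx2, Rarg was followed by Crabp1 (5.98 CPM per kb), Crabp2 (5.17), Dhrs3 (4.45), Rara and Aldh1a2 (2.54). In that group the 4 libraries of Crabp2, at 3.44 to 6.98 CPM per kb, overlapped those of Crabp1, Dhrs3 and Rara. Dhrs3 passed Aldh1a2 in this order with no overlap, whereas its lowest library lay below the highest library of Rara (4.10 CPM per kb), so those ranges overlapped.

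Between the mouse and the rat protein none of the 10 genes was called. The background was 0.0187% (0.00625% higher and 0.0125% lower with mCdx2), or 3 genes of 16000 called by edgeR, with 857 at an unadjusted p under 0.05 and 21 by DESeq2. The narrowest interval was that of Rarg, for which mCdx2 minus rCdx2 was 0.07 on the log2 scale (95% interval -0.13 to 0.27). The interval of Rara ran from -0.29 to 0.19 and that of Aldh1a2 from -0.26 to 0.44. Those of Crabp1 (-0.38 to 0.50), Dhrs3 (-0.61 to 0.33) and Rarb (-0.76 to 0.15) still left room for differences under 2-fold. For Stra6 (-1.02 to 0.19), Cyp26a1 (-1.56 to 0.48) and Cyp26b1 (-1.77 to 0.54) the depth did not bound the difference below 2-fold. Cdx2 differed by 0.71 (-0.32 to 1.74) between the same libraries. With the replicate number as a block within each set, an alternative chosen after the data had been seen, Cdx2 was called (0.69 ± 0.10, adjusted p = 0.00121) and so were 149 genes, but none of the 10 genes. Both values for Cdx2 carry the limit of alignment given above, so a difference in its RNA and one in alignment cannot be told apart.

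The 7 mutants set most of these genes apart from mCdx2 and rCdx2. Over the mean of the mutants against the mean of mCdx2-OE and rCdx2-OE, 9 of the 10 genes differed, 7 lower and 2 higher, against 64% of all genes tested (33.4% lower and 30.6% higher). This contrast, which was added after the data had been seen, used the same edgeR test without a fold threshold. The 4 libraries of mCdx2 and rCdx2 lay above all 14 mutant libraries for 5 genes, which 17.2% of all genes did, and below them for 1 gene, Rara (13% of all genes). Cdx2 RNA itself was at -0.26 ± 0.27 in this comparison (adjusted p = 0.422), but with the replicate block within each set it was called lower with the mutants (-0.35 ± 0.06, adjusted p = 1.85e-05), while the same 9 genes were called. The 64% of all genes is from the fit without this block, and the share with it is not given here. The limit of alignment holds for Cdx2 here as well, since mCdx2-OE is part of the mean.

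Rarb reached 7.69 to 11.3 CPM with mCdx2 or rCdx2 and 0.352 to 1.11 CPM, median 0.88, with the mutants. The highest mutant library was thus below the lowest WT library. The difference was -3.45 ± 0.14 on the log2 scale (adjusted p = 2.97e-12, 10.9-fold lower). Stra6 behaved alike, at 2.47 to 3.65 CPM with mCdx2 or rCdx2 and 0.0743 to 0.645 CPM with the mutants, with a difference of -3.34 ± 0.20 (adjusted p = 3.99e-10, 10.1-fold lower). For Cyp26a1 the mutant libraries held 0 to 9 counts, and R1 was listed at 0 in both libraries, in libraries of 14602353 and 20638317 counts. Its mean was 0.0747 ± 0.117 CPM (SD, n = 14) with the mutants and 1.72 ± 0.48 CPM (n = 4) with mCdx2 or rCdx2 (adjusted p = 7.92e-08). The fitted difference of -5.02 depends on the prior count and is not a bound.

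Crabp2 was at 4.54 to 9.23 CPM with mCdx2 or rCdx2 and at 0.55 to 2.81 CPM with the mutants, a difference of -2.40 ± 0.17 (adjusted p = 2.42e-09, 5.28-fold lower). All mutant libraries were below WT. Dhrs3 differed from the genes above, since the mutants kept it between both groups, at 1.62 to 5.29 CPM, above both WT libraries and below every mCdx2 or rCdx2 library (-1.85 ± 0.13, adjusted p = 3.16e-09). Cyp26b1 was at 0.11 to 0.91 CPM with the mutants and overlapped the other groups. Its difference of -0.87 ± 0.34 (adjusted p = 0.033) rested on single libraries, as the adjusted p was 0.0503 without R12-OE replicate 1, 0.0593 without mCdx2-OE replicate 1, 0.113 without mCdx2-OE replicate 2, 0.152 without rCdx2-OE replicate 2, 0.0525 without R13-OE replicate 2 and 0.0656 without R2-OE replicate 2.

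The abundant receptors went with the mutants in unlike ways. Rarg was lower still with the mutants, at 13.6 to 36.5 CPM against 33.0 to 40.6 CPM with mCdx2 or rCdx2 (-0.79 ± 0.05, adjusted p = 1.82e-09, 1.73-fold lower). Rara was slightly higher, at 19.1 to 23.5 CPM against 15.0 to 17.9 CPM (0.39 ± 0.06, adjusted p = 7.08e-05, 1.31-fold). Crabp1 was also higher, by 0.49 ± 0.12 (adjusted p = 0.00158, 1.41-fold), but its mutant libraries, at 3.85 to 11.1 CPM, spanned both other groups. Aldh1a2 was at 4.43 to 7.73 CPM with the mutants and did not differ detectably (0.03 ± 0.09, adjusted p = 0.802).

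**Figure D2:**
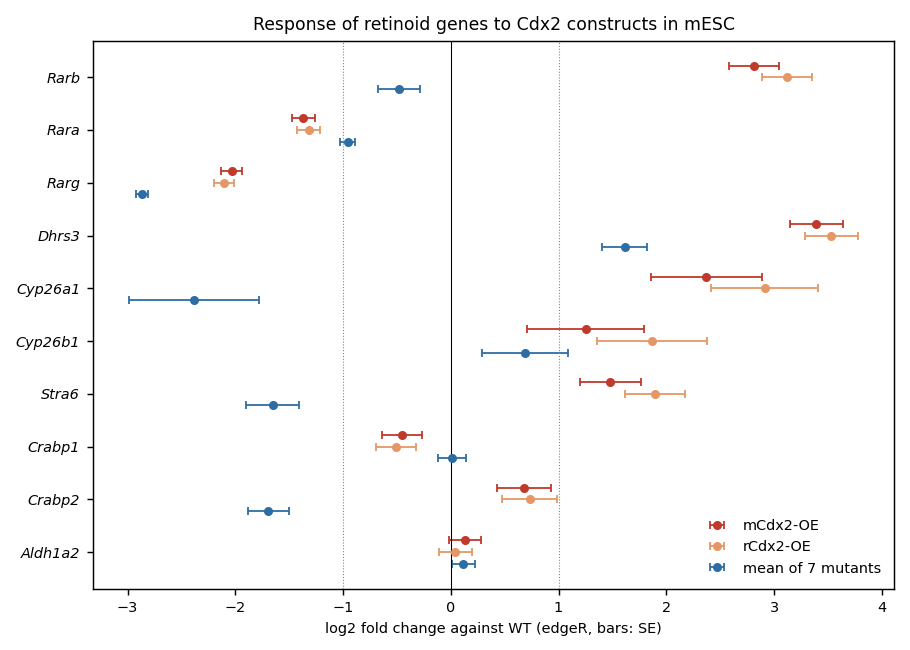
Log2 fold change against WT of each of the 10 genes in mESC (points, with bars of 1 standard error from the edgeR fit) for mCdx2-OE, rCdx2-OE and the mean of the 7 mutants, with dotted lines at the 2-fold threshold. Rarb, Stra6, Crabp2 and Cyp26a1 lie above 0 with mCdx2 and rCdx2 and below 0 with the mutants, whereas Rarg and Rara lie below 0 and Dhrs3 above 0 in all 3.

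Against WT the mean of the 7 mutants, also added after the data had been seen, differed for 5 of the 10 genes, 1 higher and 4 lower, where 26.2% of all genes were called (12.3% higher and 13.9% lower). Dhrs3 rose (1.61 ± 0.21, adjusted p = 2.64e-06), and it did so in each of the 7 mutants, by 1.13 to 1.99. Rarg fell (-2.86 ± 0.06, adjusted p = 8.75e-16), again in each mutant. Stra6 fell (-1.65 ± 0.24, adjusted p = 1.24e-05), in 6 of 7 mutants with R12 the other, and Crabp2 fell (-1.69 ± 0.19, adjusted p = 6.07e-07), in 5 of 7 with R1 and R2 the others. Cyp26a1 fell on the mean (adjusted p = 0.00226) and was called in R1, R3 and R13. Rara was at -0.96 ± 0.07 (adjusted p = 4.68e-09), just under the 2-fold threshold, and passed it in R2 and R23. Rarb was at -0.48 ± 0.19 and was called in no mutant. Per mutant, 3 to 5 of the 10 genes were called, where the background was 23.2% (R1), 23.4% (R2), 25.6% (R3), 23.7% (R12), 27.8% (R13), 28.7% (R23) and 28.9% (R123). R1 had 4 calls, and 2 without R1-OE replicate 1.

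R123 carries all 3 mouse residues. Its Rarb level was 1.10 and 0.783 CPM, against 7.69 and 9.11 CPM with mCdx2, and its Dhrs3 level was 4.06 and 5.29 CPM, against 13.05 and 11.7 CPM. Its Crabp2 level was 0.55 and 1.17 CPM, against 7.74 and 5.85 CPM with mCdx2. R123 did not overlap mCdx2-OE in these 3 genes. Nor did it in Stra6, Cyp26a1 and Rarg, which were lower, or in Rara and Crabp1, which were higher. It did overlap in Cyp26b1, at 0.413 and 0.914 CPM against 0.585 and 0.781 CPM, and in Aldh1a2, at 6.05 and 6.27 CPM against 5.69 and 6.18 CPM. How many of all genes did not overlap between these libraries was not counted. The difference between R123 and mCdx2 was not tested.

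Across the 9 constructs tested jointly, 8 of the 10 genes differed among these conditions, with 56.9% of all genes called. Cyp26b1 (adjusted p = 0.217) and Aldh1a2 (adjusted p = 0.435) were the others, although Cyp26b1 passed without R3-OE replicate 1 (adjusted p = 0.0354). Cdx2 did not pass without a block (adjusted p = 0.195) but did with the replicate block within each set (adjusted p = 1.09e-09), where 8 of the 10 genes were again called. The share of all genes called in this test with the block is not given here. As mCdx2 is among the constructs, the limit of alignment holds for Cdx2 in this test too. Differences between constructs, between lines and between the sets of libraries cannot be told apart in it.

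The changes were then compared with each other in an additive model over rCdx2 and the 7 mutants. Change 3, the deleted asparagine, went with lower Rarg, Stra6 and Crabp2 and with higher Crabp1. These are 4 of the 10 genes, where 36.6% of all genes were called (18.2% higher and 18.4% lower). Changes 1 and 2 had no called member and no called gene at all (background 0% by edgeR), with 1995 and 1569 genes at an unadjusted p under 0.05 and 22 and 1 genes by DESeq2. Among the 7 mutants, where the replicate numbers paired the libraries, a fit with the block called 66 and 228 genes for changes 1 and 2, with Rarg slightly lower with change 1 (-0.25 ± 0.06, adjusted p = 0.0371).

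Rarg was at 13.6 to 18.0 CPM in the 8 mutant libraries with change 3 and at 27.7 to 36.5 CPM in the 6 without it, so the sets did not overlap. The additive effect of change 3 was -1.13 ± 0.06 (adjusted p = 2.44e-09). Crabp1 was at 6.91 to 11.1 CPM with change 3 and 3.85 to 6.12 CPM without it, also with no overlap, and its effect was 0.88 ± 0.12 (adjusted p = 2.69e-05). Crabp2 was at 0.55 to 1.41 CPM with change 3 and 1.29 to 2.81 CPM without it, with an effect of -1.61 ± 0.26 (adjusted p = 0.000201). Stra6 had an effect of -2.12 ± 0.48 (adjusted p = 0.0027), but its mutant libraries overlapped, at 0.0743 to 0.506 CPM with change 3 and 0.241 to 0.645 CPM without it (means 0.238 and 0.437 CPM), against 3.65 and 3.52 CPM with rCdx2. In the 7 mutants alone Stra6 and Cyp26a1 did not reach the filter on low counts, so their effects were not tested without rCdx2. Of the genes called for change 3 only Rarg kept its call without replicate 1 and without replicate 2 of all constructs. Stra6 lost it both times (adjusted p = 0.0751 and 0.143), Crabp2 without replicate 1 (0.054) and Crabp1 without replicate 2 (0.0567). Where the calls were lost the effects were -2.32 and -1.95 for Stra6, -1.25 for Crabp2 and 0.85 for Crabp1, in fits on 8 libraries in place of 16. Cdx2 RNA was itself lower with change 3 (-0.74 ± 0.26, adjusted p = 0.0367, and with the replicate block -0.73 ± 0.13, adjusted p = 0.000619). In the replicate 1 libraries of the mutants it was at 61.9 to 94.4 CPM with and 145 to 147 CPM without change 3, and in the replicate 2 libraries at 37.2 to 44.3 against 60.6 to 68.8 CPM, so the sets did not overlap within either replicate. The trophoblast markers were also lower with change 3, at 161 to 186 CPM summed against 213 to 286 CPM. Their part in the effect of change 3 was not tested.

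The effects did not add up for every gene. In a joint test of the terms beyond the sum of the changes, which was added after the data had been seen, Rarb (adjusted p = 1.78e-05), Dhrs3 (9.52e-05), Stra6 (0.00522) and Cyp26a1 (0.00753) were called, 4 of 10 where 28.9% of all genes were. For these genes the libraries with a single change already lay below those of rCdx2. Rarb, for example, was at 0.352 and 1.04 CPM in R1, 0.963 and 0.832 CPM in R2 and 0.843 and 1.06 CPM in R3. Since rCdx2-OE was the only construct here without a change, these terms cannot be told apart from a difference between the sets of libraries. Crabp2 did not pass (adjusted p = 0.0819). Within the 7 mutants alone, also added after the data had been seen, the effect of change 3 on Dhrs3 was 0.45 (adjusted p = 0.0257) and on Rarb 0.05, whereas with rCdx2 in the fit they were -0.34 and -1.34. With the replicate block as well, the 7 mutants gave 0.46 ± 0.13 for Dhrs3 (adjusted p = 0.00404), -1.17 for Rarg, 0.92 for Crabp1 and -1.26 for Crabp2. These were the 4 members called, in a fit that called 8601 genes in all and did not test Stra6 and Cyp26a1.

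In RMES cells the libraries labelled WT held Cdx2 RNA, at 129 and 127 CPM on the mouse allele and 453 and 440 CPM on the rat allele. The mCdx2-OE library had 968 CPM on the mouse and 47.2 CPM on the rat allele, and the rCdx2-OE library 4.45 and 880 CPM. Reads were assigned to a genome by edit distance, so those of the lentiviral Cdx2 count toward the allele of its species. These Cdx2 values are thus not levels of the endogenous alleles alone. Because the libraries labelled WT held Cdx2 RNA, the label WT is kept as a label, and every direction below rests on it. Induced means the mCdx2-OE and rCdx2-OE libraries together, which carry different proteins and are 1 library each. The summed trophoblast markers were 215 to 225 CPM in the libraries labelled WT and 858 to 1010 CPM in the induced libraries on the mouse allele, and 312 to 331 and 974 to 1079 CPM on the rat allele. The summed naive pluripotency markers went from 6595 to 6597 CPM down to 2645 to 2678 CPM on the mouse allele and from 4164 to 4204 down to 1553 to 1628 CPM on the rat allele, and the posterior mesoderm markers from 24.0 to 25.4 down to 3.22 to 3.35 CPM and from 25.01 to 27.3 down to 4.47 to 4.53 CPM. The part of these shifts in the changes below was not tested. The naive pluripotency sums cover 8 genes on the mouse and 7 on the rat allele. Those of posterior mesoderm cover 7 and 6, so these sums are not directly comparable between alleles.

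On the mouse allele 9 of the 10 genes passed the test, 8 higher and 1 lower, against 44.5% of all genes tested (28.3% higher and 16.1% lower). On the rat allele 9 passed as well, 8 higher and 1 lower, against 42.5% (28.3% higher and 14.2% lower). Stra6, Rarb and Cyp26a1, which stood near 0 in the libraries labelled WT, were higher in the induced libraries on both alleles. Stra6 had 0 and 0 counts on the mouse allele in those libraries and 54 and 39 counts in mCdx2-OE and rCdx2-OE, which is at least 25.3-fold higher against a floor of 3 counts over both libraries. On the rat allele it had 1 and 0 counts against 64 and 136. Rarb had 3 and 1 counts on the mouse allele against 103 and 102, a ratio of CPM of 41.8 (exact 95% interval 16.1 to 155), and 2 and 5 counts on the rat allele against 86 and 73, a ratio of 17.2 (8.15 to 43.4). These intervals cover counting error only.

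Cyp26a1 had 0 and 2 counts on the mouse allele against 12 and 10, a ratio of 8.97 (2.20 to 78.7), and 2 and 2 counts on the rat allele against 59 and 67, a ratio of 23.8 (9.08 to 88.8). Its call on the mouse allele was lost with DESeq2 (adjusted p = 0.0894) and without WT replicate 1 (0.0665). Dhrs3 rose on both alleles by nearly the same amount, from 0.648 and 0.837 CPM to 4.36 and 4.88 CPM on the mouse allele (2.63 ± 0.24, adjusted p = 3.56e-07) and from 0.695 and 1.07 CPM to 5.60 and 6.45 CPM on the rat allele (2.76 ± 0.24, adjusted p = 3.72e-08). Its mouse minus rat difference was -0.16 (95% interval -0.90 to 0.58).

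Rara rose on both alleles in RMES cells. It went from 8.51 and 7.92 CPM to 23.4 and 25.8 CPM on the mouse allele (1.58 ± 0.10, adjusted p = 1.88e-08) and from 19.7 and 18.7 CPM to 54.3 and 56.7 CPM on the rat allele (1.53 ± 0.08, adjusted p = 7.76e-11). The difference between the alleles was 0.03 (-0.20 to 0.26). In mESC the same gene had fallen, and the difference between the cell types was not tested.

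Rarg moved in opposite directions on the alleles of the same cells. On the mouse allele it fell from 72.6 and 67.3 CPM to 30.2 and 30.4 CPM (-1.21 ± 0.07, adjusted p = 3.65e-09). On the rat allele it rose from 3.80 and 3.54 CPM to 16.2 and 21.3 CPM (2.35 ± 0.16, adjusted p = 1.55e-09). Induction thus brought the alleles closer, per length from 16.4 and 0.888 CPM per kb to 7.10 and 4.54 CPM per kb, on scales normalised within each allele. The test of the difference between alleles gave -3.58 ± 0.14 (adjusted p = 2.93e-16).

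That test called 5 of the 10 genes, where 62.1% of all genes were called (30.3% with the larger value on the mouse allele and 31.8% on the rat allele). Cyp26b1 rose on the mouse allele, from 3 and 2 counts to 35 and 37 (ratio 11.7, 4.80 to 37.2), and fell on the rat allele, from 4.42 and 4.07 CPM to 2.21 and 1.15 CPM (-1.34 ± 0.26, adjusted p = 0.00023). The fall on the rat allele was -0.94, under 2-fold, without the rCdx2-OE library. The fitted difference of 4.83 ± 0.61 (adjusted p = 2.82e-07) depends on a group of 5 counts. Aldh1a2 rose on the rat allele, from 0.329 and 0.500 CPM to 3.57 and 2.43 CPM (2.83 ± 0.34, adjusted p = 1.48e-06), and was at 4.96 and 4.91 against 7.20 and 5.88 CPM on the mouse allele, which was under 2-fold (0.41 ± 0.16). The difference was -2.44 ± 0.34 (adjusted p = 1.16e-06).

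The binding proteins rose more on the mouse allele. Crabp2 went from 0.709 and 0.586 CPM to 5.27 and 5.72 CPM on the mouse allele (3.08 ± 0.23, adjusted p = 5.54e-08) and from 1.39 and 1.60 CPM to 5.07 and 3.81 CPM on the rat allele (1.56 ± 0.23, adjusted p = 1.53e-05), a difference of 1.50 ± 0.35 (adjusted p = 0.000752). Crabp1 went from 0.555 and 0.335 CPM to 2.24 and 1.72 CPM on the mouse allele (2.16 ± 0.34, adjusted p = 6.28e-05). On the rat allele it was far higher from the start, at 23.8 and 22.5 CPM against 31.2 and 25.4 CPM, and its change stayed under 2-fold (0.29 ± 0.10). The difference was 1.85 ± 0.29 (adjusted p = 5.76e-06). For Rarb (1.21, -0.88 to 3.30) and Cyp26a1 (-1.50, -5.19 to 2.19) the interval of the difference was wide, since the libraries labelled WT held 0 to 5 counts, and Stra6 gave no usable interval with all but 1 of those counts at 0.

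**Figure D3:**
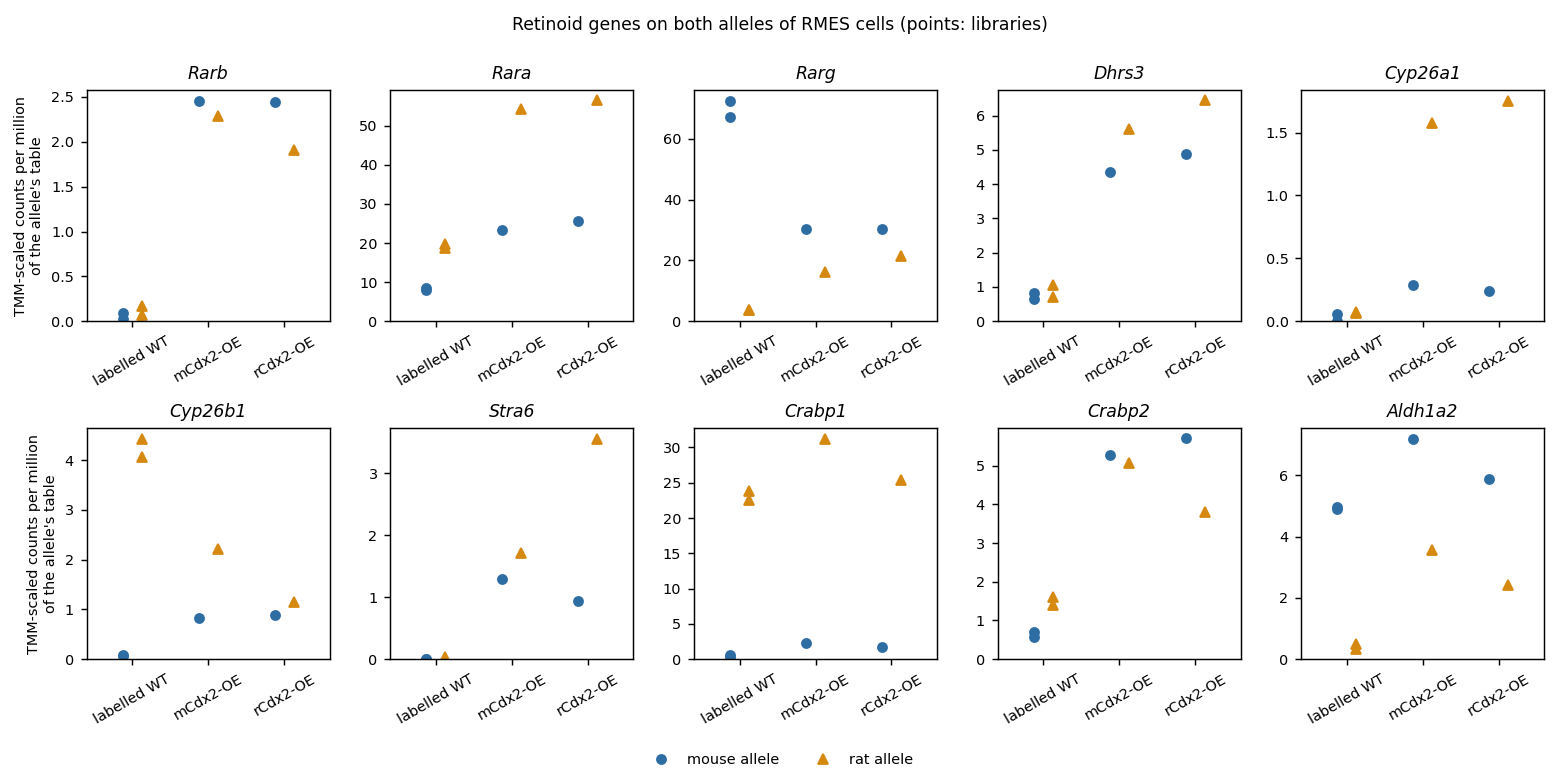
CPM of each of the 10 genes on the mouse allele and on the rat allele in the 4 RMES libraries (2 labelled WT, mCdx2-OE and rCdx2-OE), 1 panel a gene and 1 point a library. Rarg goes down on the mouse allele and up on the rat allele, whereas Rara, Rarb, Dhrs3 and Crabp2 go up on both.

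Open chromatin near the genes was compared between 1 WT and 1 mCdx2-OE library of mESC by ATAC-seq, so these differences have no replicate check. Peaks were linked to a gene where their centre lay within 30 kb of its start in the GENCODE annotation of GRCm38, and the reads of each library were scaled to a common total, the mean of both. Of 94 such peaks, 7 (7.45%) opened and 16 (17.0%) closed past 2-fold, against 9.56% and 14.3% of all peaks. Without scaling the balance turned to 12 opened and 7 closed, so it rests on the scaling. The share of changed peaks was near the background.

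Rara had 20 peaks, of which 6 closed and 1 opened, and their summed scaled reads went from 1465 to 829 (log2 ratio -0.82). Of the closed peaks 1 lay just upstream of the GENCODE start, with 102 reads in WT and 21 in mCdx2-OE at -1.50 kb (-2.65), and 1 just inside the gene, with 60 and 22 reads at 0.48 kb (-1.83). The deepest lay in an intron at 27.1 kb, with 173 and 45 reads (-2.35). Rarg had 15 peaks with 3 closed, the deepest of them in an exon at 21.8 kb with 157 and 54 reads (-1.96), whereas the peak nearest its start had 36 and 37 reads (-0.39). Both genes had fallen in RNA.

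Of the genes that rose, Rarb had a peak in an intron at 26.6 kb with 3 reads in WT and 58 in mCdx2-OE (3.50), and Stra6 one at -7.91 kb, in an intron of Ccdc33, with 15 and 76 reads (1.85). Dhrs3 and Cyp26a1 had no opened peak, and the peaks nearest their starts had 175 and 229 reads (-0.05) and 48 and 55 reads (-0.24). Dhrs3 had 3 closed peaks in its introns although its RNA rose, with 55 and 34, 40 and 26, and 65 and 39 reads, all under 2-fold without scaling. Aldh1a2, whose RNA did not change detectably, had an opened peak in an intron at 26.3 kb with 17 and 94 reads (1.98), and it was the only opened peak near the 10 genes that overlapped a Cdx2 peak.

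Cdx2 ChIP-seq with mCdx2 and rCdx2 in mESC gave 15 peaks near 6 of the 10 genes (60%), against 72.3% of 21911 protein-coding genes. Which ChIP counts belong to mCdx2 and which to rCdx2 was inferred from their short names, in mESC and in RMES cells. Aldh1a2 had 7 peaks, Dhrs3 had 3, Rarb had 2, and Rarg, Stra6 and Cyp26a1 had 1 each. On the mouse genome of RMES cells 14 peaks lay near 5 of the genes, where 63.6% of genes had one. They were 6 at Aldh1a2, 4 at Rarb, 2 at Dhrs3 and 1 each at Stra6 and Cyp26a1. Rara, Crabp1, Crabp2 and Cyp26b1 had none in mESC or on the mouse genome of RMES cells within 30 kb of the GENCODE start. Peaks on the rat genome of RMES cells were not linked to genes here.

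Strong peaks in mESC at 3 of the genes are shown as the central 300 bases of GRCm38, plus strand, with capitals where the letters TTTATNG of the Cdx2 motif were found on either strand (CNATAAA on the other). They had 278 scaled reads with mCdx2 and 261 with rCdx2 at Aldh1a2 (26.2 kb, in an intron), 208 and 143 at Dhrs3 (-12.0 kb, intergenic) and 86.1 and 92.3 at Stra6 (27.0 kb, in introns of Stra6 and Ccdc33).
Aldh1a2 peak, chr9:71241831-71242130: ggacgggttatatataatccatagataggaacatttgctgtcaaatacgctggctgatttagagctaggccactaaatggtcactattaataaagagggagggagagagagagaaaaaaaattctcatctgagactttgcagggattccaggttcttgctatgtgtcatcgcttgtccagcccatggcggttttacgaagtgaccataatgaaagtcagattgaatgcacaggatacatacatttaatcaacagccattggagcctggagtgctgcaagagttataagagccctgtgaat
Dhrs3 peak, chr4:144880679-144880978: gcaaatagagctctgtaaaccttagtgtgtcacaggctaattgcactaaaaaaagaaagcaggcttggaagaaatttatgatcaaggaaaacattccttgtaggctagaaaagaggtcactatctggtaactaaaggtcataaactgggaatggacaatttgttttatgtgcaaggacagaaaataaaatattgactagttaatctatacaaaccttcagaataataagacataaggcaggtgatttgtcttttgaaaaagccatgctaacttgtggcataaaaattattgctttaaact
Stra6 peak, chr9:58090599-58090898: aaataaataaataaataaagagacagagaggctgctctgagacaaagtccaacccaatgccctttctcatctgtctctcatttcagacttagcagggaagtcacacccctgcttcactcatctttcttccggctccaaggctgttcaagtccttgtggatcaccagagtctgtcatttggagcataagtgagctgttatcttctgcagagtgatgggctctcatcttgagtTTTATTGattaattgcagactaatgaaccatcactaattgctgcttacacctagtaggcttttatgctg
The letters occurred in 10 of the 15 windows near these genes (66.7%), in 54.8% of all 91665 ChIP windows and in 14.3% of all 122350 ATAC windows of this length. The windows printed for Aldh1a2 and Dhrs3 held none, whereas 4 of the 7 windows at Aldh1a2 and 2 of the 3 at Dhrs3 held them. The DR5 element was in none of the 15 windows.

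No peak near these genes differed past 2-fold between mCdx2 and rCdx2, against 0.912% of all mESC peaks and 2.08% of all RMES peaks on the mouse genome. The largest ratio in mESC was 1.89 at Rarg (13.5 kb, intron), with 26.5 scaled reads with mCdx2 and 50.9 with rCdx2, and the largest in RMES was 1.79 at Rarb (-4.82 kb). Both comparisons set 1 library against 1. ChIP of the mutants was not analysed here.

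The starts of Rarb, Stra6 and Rara differ between annotations, as does 1 of the starts of Rarg. The RefSeq start of Rarb lies 244 kb inside the GENCODE start, those of Stra6 65.3 to 70.9 kb and those of Rara 9.88 to 37.1 kb inside, and the RefSeq starts were used as an alternative chosen after the data had been seen. Around the RefSeq start of Rarb there were 6 Cdx2 peaks in mESC, the strongest at -29.4 kb with 97.4 scaled reads with mCdx2 and 90.2 with rCdx2, over an ATAC peak with 7 reads in WT and 38 in mCdx2-OE (1.88). The ATAC peak at its promoter, which holds the DR5 element printed above, had 65 and 140 reads (0.66). At Stra6 an ATAC peak at -15.7 kb with 37 and 120 reads (1.24) overlapped a Cdx2 peak with 50.1 and 89.1 scaled reads. At Rara the ATAC peak over the outermost RefSeq start had 195 and 139 reads (-0.92) and was not closed past 2-fold, and a Cdx2 peak with 52.0 and 53.9 scaled reads lay 26.0 kb from the innermost, so that Rara had 1 Cdx2 peak in mESC under this alternative.

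**Figure D4:**
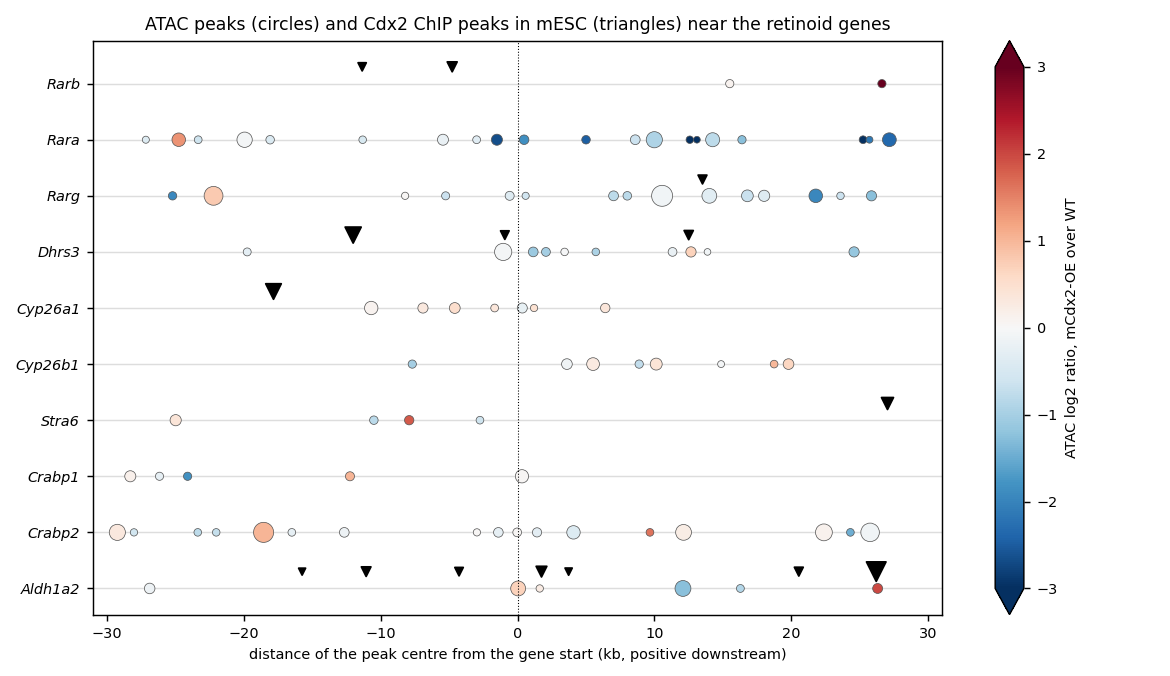
ATAC peaks (circles) and mESC Cdx2 ChIP peaks (triangles) by distance in kb from the GENCODE start of each of the 10 genes, with marker area growing with scaled reads and circle colour giving the log2 ratio of mCdx2-OE over WT. Rara has 6 closed peaks, and Cdx2 peaks are most frequent at Aldh1a2, with 7.

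Of 23 other genes of retinoid uptake, conversion and transport and of receptor partners, 17 were tested in mESC. With mCdx2, 6 rose and 1 fell (median log2 fold change 0.53, against -0.03 over all genes), and with rCdx2 6 rose and 2 fell. These are 7 and 8 of 17, where 33.4% and 34.5% of all genes were called. Stra6l, another retinol receptor, rose from a mean of 0.77 CPM to 7.98 CPM with mCdx2 (3.34 ± 0.20) and stayed at 3.27 to 8.80 CPM with the mutants. Aldh1a3, another retinaldehyde dehydrogenase, rose from 0.222 to 1.21 CPM (2.37 ± 0.36), and the mutants were higher still (0.54). Fabp5, a fatty acid binding protein that also binds retinoic acid, rose from 6.20 to 28.8 CPM, while Dhrs4, a retinol dehydrogenase, fell from 40.1 to 13.03 CPM (-1.62 ± 0.15). Between the mutants and mCdx2 or rCdx2, 3 were higher and 7 lower (median -0.15), 10 of 17 where 64% of all genes differed. On the mouse allele of RMES cells 4 of 17 rose and 2 fell (median -0.29), and on the rat allele 7 of 20 rose and 1 fell (0.68), against 44.5% and 42.5% of all genes called.

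Of 16 listed genes known to respond to retinoic acid, 11 were tested in mESC, and 7 rose and 2 fell with mCdx2 (median 1.55) and 7 rose and 3 fell with rCdx2 (1.71), where 33.4% and 34.5% of all genes were called. With the mutants 9 were lower and 2 higher than with mCdx2 or rCdx2 (median -1.71, against -0.01 over all genes, of which 64% differed). Zfp703 rose from 0.829 to 10.8 CPM with mCdx2 and was at 1.53 to 5.00 CPM with the mutants. Meis1 and Nr2f2 followed the same order, whereas Tgm2, a transglutaminase, rose from 4.33 to 16.8 CPM and was at 7.96 to 25.8 CPM with the mutants. Stra8, the gene of meiotic entry, went the other way, since it fell from 58.4 to 16.9 CPM with mCdx2 (-1.78 ± 0.17) and further with the mutants, to 0.111 to 1.67 CPM, but rose in RMES cells by 7.51 on the mouse and 5.80 on the rat allele on the log2 scale. In RMES cells 5 of 13 genes of this list rose and 4 fell on the mouse allele, and 6 of 14 rose and 6 fell on the rat allele, against 44.5% and 42.5% of all genes called.

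Over the 10 mESC conditions (means of log2(CPM + 1)), Rarb was most like Cyp26a1 among the 10 genes (Pearson r of 0.992) and then Stra6 (0.961), and Stra6 was also close to Crabp2 (0.910). Rarg and Rara, which both fell, were less alike (0.584). For the 3 most abundant members, the closest of all genes to Rarg were Capn15 (0.997), Akr1b8 (0.996) and Sall3 (0.995), those to Rara were Rbmxl2 (0.995), Ndufs8 (0.994) and Snrpc (0.993), and those to Crabp1 were Pck2 (0.993), Mef2b (0.989) and Cep57l1 (0.981). All points share the same 10 conditions and the same difference in depth between WT and the rest, so these values describe likeness only.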

How the data were processed

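RNA, open chromatin and Cdx2 binding in mESC and RMES cells were analysed from the count tables that the authors deposited, which hold whole-number counts per gene or peak, not normalised. For RNA the authors aligned reads with STAR 2.7.0d and counted by strand with featureCounts on Ensembl genes without pseudogenes. RMES reads were assigned to mm10 or rn6 by their edit distance. ChIP reads were trimmed with cutadapt 2.6, aligned with Bowtie2 2.3.4.3, cleared of duplicates with Picard 2.6.0 and called with MACS2 on merged reads. The mESC libraries came as 1 table a replicate number, and the 19919 genes in both were kept, which left out at most 0.0141% of the counts of a library.

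Genes were tested with edgeR 4.0.16 (quasi-likelihood, TMM, filterByExpr) in R 4.3.3, with Benjamini-Hochberg adjustment over all genes tested: 16000 in mESC (all 20 libraries in 1 fit), 15114 in the model of changes 1 to 3, 16887 and 14627 on the mouse and rat allele and 13605 between alleles, with the library as a block. Against WT a call also needed a log2 fold change beyond 1. Errors are SE, and intervals are 95%. Total counts a library were 12698443 to 94686029 in mESC, 36166038 to 41418817 and 29453412 to 35249756 on the mouse and rat allele of RMES cells, 6109353 and 8277850 for ATAC and 3387074 to 6223794 for ChIP on the mouse genome. Replicates spread 2.12 to 7.64 times their sampling variance, more than sampling noise alone. Peak ratios used counts scaled to the mean total with 1 added, and at least 40 scaled ATAC reads.

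The text names the 10 members, Cdx2 and, of 23 other pathway genes and 16 genes known to respond to retinoic acid, up to 10 a list with the largest change with mCdx2 among those called at 1 CPM or more, and the 3 genes most like each of the 3 most abundant members. The members and lists were chosen with earlier results of these data known. The fits were tested on simulated data. Alternatives were DESeq2 1.42.0, its size factors, no filter, no fold threshold, a replicate block, libraries left out and other peak windows. Same-numbered libraries did not deviate together throughout (22 of 45 pairs of conditions over 0.1), but did in all 21 pairs of mutants, so the number was a block for the mutants and, apart, for mCdx2-OE and rCdx2-OE in an alternative chosen after the data had been seen. Tables were read with Python 3.11.15, pandas 2.3.3, SciPy 1.17.1 and pysam 0.24.0 and drawn with matplotlib 3.10.9. A peak sequence and a listed gene that would otherwise be shown are not reported here.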

Additional observations from a re-analysis of the deposited data

Results flagged for a closer look

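Each value in this section is a difference between groups on the log2 scale. The response of the mouse allele of RMES cells minus that of the rat allele differed from 0 by the test of the allele by induction term for 5 genes. It was -3.58 for Rarg, whose alleles moved in opposite directions, and 4.83 for Cyp26b1, whose mouse allele rests on 5 counts in the libraries labelled WT. It was 1.50 for Crabp2, 1.85 for Crabp1 and -2.44 for Aldh1a2, and in each of these 3 the allele that was lower in the libraries labelled WT had the larger response.

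The mean of the 7 mutants minus the mean of mCdx2-OE and rCdx2-OE in mESC differed from 0 for 9 genes. It was -5.02 for Cyp26a1, -3.45 for Rarb, -3.34 for Stra6, -2.40 for Crabp2, -1.85 for Dhrs3, -0.87 for Cyp26b1 and -0.79 for Rarg, and it was 0.39 for Rara and 0.49 for Crabp1.

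Rara and Crabp1 lay on opposite sides of WT in mESC and on the mouse allele of RMES cells. With mCdx2 in mESC, Rara was at -1.37 and Crabp1 at -0.45, and the value of Crabp1 was under 2-fold and not called. Induction gave 1.58 for Rara and 2.16 for Crabp1 on the mouse allele of RMES cells. This difference between cell types was not tested, and the RMES libraries labelled WT held Cdx2 RNA.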

How the results depend on the processing

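The members called kept to within 1.5 times their main count under every alternative run, with these exceptions. R1-OE against WT had 4 calls, and 2 to 5 with a library left out. Change 3 had 4 calls, and 2 without replicate 1 and 2 without replicate 2, and change 1 had 0, and 1 in the 7 mutants with the replicate block. Opened ATAC peaks numbered 7, and 12 without scaling, 2 within 10 kb, 20 within 100 kb and 1 at a 4-fold threshold. Closed peaks numbered 16, and 7, 6, 34 and 4 under the same settings. Cdx2 peaks numbered 15 in mESC, and 5 within 10 kb, 62 within 100 kb and 6 with at least 100 reads. On the mouse genome of RMES cells they numbered 14, and 6, 46 and 5, with 1 past 2-fold between proteins within 100 kb in place of 0. The cause of these shifts was not tested beyond the wider or narrower window or threshold itself.

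Signs that turned belonged to values that were not called in the report, and of them only Dhrs3 in the 7 mutants became a call. With a library left out, mCdx2-OE minus rCdx2-OE ran from -0.166 to 0.0575 for Rara, -0.0865 to 0.212 for Rarg, -0.126 to 0.199 for Crabp1 and -0.426 to 0.595 for Crabp2. The mutants minus mCdx2 and rCdx2 ran from -0.0077 to 0.064 for Aldh1a2, and the mutants against WT from -0.0339 to 0.0505 for Crabp1, which was -0.0061 with all genes of at least 1 count. For change 3, Cyp26b1 ran from -0.146 to 0.250 without a replicate, and in the 7 mutants only Rarb was 0.0483 and Dhrs3 0.452 (0.0445 and 0.458 with the replicate block). Between alleles, with a library left out, Cyp26a1 ran from -2.41 to 1.82, Rara from -0.0072 to 0.0571, Rarb from -0.0961 to 2.66 and Stra6 from -1.28 to 2.34. Of the other member values, 1214 kept direction and call, 10 gained and 14 lost it.

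Over all genes, mCdx2-OE against rCdx2-OE had 3 calls, and 21 with DESeq2, 1 with the replicate block, 149 with the block within each set and 0 to 1 with a library left out. Change 1 had 0, and 22 with DESeq2 and 4 in the 7 mutants only, and change 3 had 5535, and 1317 and 1361 without a replicate. In the 7 mutants with the replicate block, changes 1 to 3 had 66, 228 and 8601. Without a fold threshold 11158 and 11294 genes were called with mCdx2 and rCdx2, and 13823 and 12069 on the mouse and rat allele. With the replicate number as a block, members called were 6 with mCdx2 and 7 with rCdx2, as in the fit without it, and the block changed the count only for R1-OE, from 4 to 5. With the block within each set, no call of a member changed. Cyp26a1, Cyp26b1 and Stra6 rested on few counts in many libraries, as did Rarb in the RMES libraries labelled WT.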
